A study of Mus musculus with 4 samples.

Results

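The genes described here are 10 named heparan sulphate proteoglycan and hyaluronan genes of the 27998 genes in the count tables. They are a chosen set and not all such genes that these cells expressed. They are the 4 syndecans Sdc1, Sdc2, Sdc3 and Sdc4, the glypicans Gpc1, Gpc3, Gpc4 and Gpc6, the hyaluronan synthase Has2 and the hyaluronan receptor Cd44. The members were chosen by name, with earlier results of these data known. UMIs, which count captured RNA molecules, were summed over cells of each library, myogenic cluster and non-myogenic type.

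Syndecans are transmembrane core proteins and glypicans are core proteins held in the membrane by a lipid anchor. Both carry heparan sulphate chains that bind growth factors, Wnt and Hedgehog ligands and matrix proteins such as fibronectin. Syndecan-4 and syndecan-3 are known markers of satellite cells, the stem cells of skeletal muscle, and syndecan-1 is a known gene of proliferating myoblasts. Has2 makes hyaluronan, a long matrix polysaccharide with no core protein, and Cd44 binds it and links it to the actin cytoskeleton through ezrin-family proteins.

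Each strain gave 1 single-cell library of hindlimb cells pooled from 2 mice. B10 (C57/Bl10ScsSn, 15 weeks) was the control of mdx (C57BL/10ScSn-Dmdmdx, 11 weeks), and DBA (DBA/2, 13 weeks) was the control of D2-mdx (D2.B10-Dmdmdx, 14 weeks). Both mutant strains carry the mdx allele of Dmd, the dystrophin gene mutated in Duchenne muscular dystrophy (DMD), in every cell of the animal, and neither control does. Cells of all 4 libraries were sorted for α7-integrin and VCAM1 and against Cd11b, Sca1, Cd45 and Cd31, which selects satellite cells and removes most blood, endothelial and mesenchymal cells. With 1 library per strain there was no replicate and no test. Strain, age and library cannot be told apart, and all intervals below are 95% intervals that cover counting error only.

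After filtering, 4581 cells of B10, 6313 of mdx, 3279 of DBA and 5756 of D2-mdx remained, with medians of 6672.5 to 10437 UMIs per cell, and any 2 libraries shared 3 to 8 cell barcodes. Myogenic cells numbered 4419, 4832, 2699 and 4183 in the same order, and 76.5% of mdx and 72.7% of D2-mdx cells were myogenic against 96.5% of B10 and 82.3% of DBA cells. Filtering was uneven, because 4739 of the 9931 B10 barcodes had under 1000 genes. Such barcodes numbered only 11 (DBA), 17 (D2-mdx) and 21 (mdx) elsewhere. Barcodes over 5000 genes were fewest for B10, at 41, and most for D2-mdx, at 502, with DBA at 129 and mdx at 214. Only B10 kept myogenic cells under 3000 UMIs, 39 of them. The cause of these differences was not tested. Dmd stood at 325 CPM (UMIs scaled to the same total in each library or cluster) in B10 myogenic cells against 120 in mdx, and at 288 in DBA against 94.2 in D2-mdx. The summed level of 8 myofibre genes in myogenic cells was 38.1 CPM in B10 against 133 in mdx, and 32.3 in DBA against 339 in D2-mdx, with none of them at 0, and its part in the results below was not tested.

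Among the members that the results turn on, Sdc4 (ENSMUSG00000017009) lies in GRCm38 at chr2:164424247-164443887 on the minus strand, Cd44 (ENSMUSG00000005087) at chr2:102811141-102901665 on the minus strand, Gpc3 (ENSMUSG00000055653) at chrX:52272426-52613950 on the minus strand and Gpc1 (ENSMUSG00000034220) at chr1:92831645-92860779 on the plus strand. RefSeq promoters (GRCm38.p6) were matched for 6 of the 10 members, and those of Sdc4, Gpc3 and Cd44 are printed. Sdc4 was lower and Gpc3 and Cd44 higher in both dystrophic libraries, and these windows hold no annotated exon of their gene. The Sdc3 window met the same terms and is not printed. Each printed window covers the 250 bases before the RefSeq start site. The Sdc4 gene span above includes a processed transcript that starts further upstream, so the Sdc4 window lies within that span. Capitals mark GGGCGG or its reverse complement, the GC box bound by SP1.
Sdc4, chr2:164443189-164443438, minus strand: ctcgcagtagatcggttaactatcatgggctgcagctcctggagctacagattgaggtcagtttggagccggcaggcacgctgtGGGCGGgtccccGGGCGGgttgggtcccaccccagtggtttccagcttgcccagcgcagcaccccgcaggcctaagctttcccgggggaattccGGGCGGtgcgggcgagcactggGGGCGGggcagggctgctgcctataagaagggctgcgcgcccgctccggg
Gpc3, chrX:52613975-52614224, minus strand: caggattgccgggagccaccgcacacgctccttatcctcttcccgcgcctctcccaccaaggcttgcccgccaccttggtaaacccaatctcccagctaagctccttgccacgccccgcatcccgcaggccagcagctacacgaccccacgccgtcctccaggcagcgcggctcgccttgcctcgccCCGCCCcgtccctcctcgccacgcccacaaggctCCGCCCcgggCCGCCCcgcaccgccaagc
Cd44, chr2:102901666-102901915, minus strand: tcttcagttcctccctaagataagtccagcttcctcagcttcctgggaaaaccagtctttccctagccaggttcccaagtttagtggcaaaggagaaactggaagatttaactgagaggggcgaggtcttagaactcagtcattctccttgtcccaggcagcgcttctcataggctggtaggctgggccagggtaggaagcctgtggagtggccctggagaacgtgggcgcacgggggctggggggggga
The Sdc4 window held 4 GC boxes, the Gpc3 window 3 and the Cd44 window 0, and 32.7% of all 32851 promoters of this length held at least 1. The Sdc4 window also held 1 match to the NF-kB consensus, from -82 to -73 relative to the start site and next to a GC box, a match that 7.25% of promoters held. TGANTCA (AP-1), CAGCTG (an E-box) and the CArG box, searched on both strands, were found in none of the 6 promoters, and 6.75%, 13.0% and 1.47% of all promoters held them.

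In all myogenic cells, Sdc1, Gpc1, Gpc3 and Cd44 were at least 2-fold higher in both dystrophic libraries than in their controls, and no member with at least 10 CPM was 2-fold lower in either. Of the 9 members that reached 10 CPM in at least 1 of the libraries compared, 4 passed 2-fold higher in mdx over B10, where 4.65% of 8469 genes did so, and 4 of 9 passed in D2-mdx over DBA, where 5.88% of 8502 genes did so. For the lower direction the background was 5.14% and 5.95%. Gpc3 and Gpc6 reached 10 CPM in the dystrophic libraries only, so that their count among the genes compared depends on those libraries. The members' median log2 ratio was 0.96 for mdx and 0.59 for D2-mdx, against -0.033 and -0.074 over all genes compared. Both medians were the ratio of Gpc6 itself, so they depend on the dystrophic libraries in the same way. Because the members were chosen with earlier results of these data known, the counts and medians describe this list and are no test of it.

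**Figure D1:**
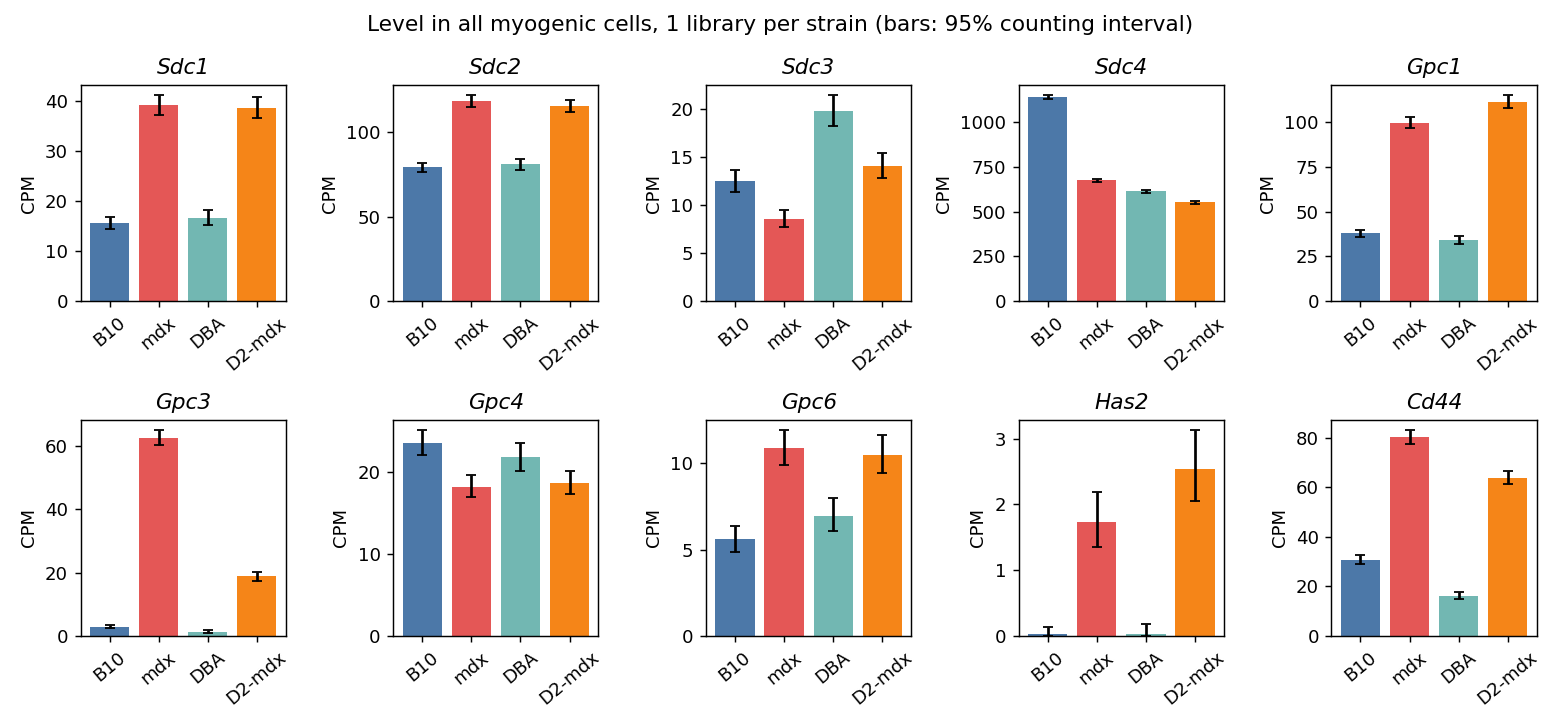
Level of each member in CPM (y axis, each panel with its own scale from 0) in all myogenic cells of the 4 libraries (x axis). Bars are the sums over cells of 1 library and error bars are 95% counting intervals. Gpc3 stands at 62.6 CPM in mdx and 18.8 in D2-mdx, against 2.86 in B10 and 1.26 in DBA, while Sdc4 is highest in B10, at 1139.

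Sdc4, the syndecan that binds fibronectin beside integrins, was lower in both dystrophic libraries. Its level was 1139 CPM in B10 against 675 in mdx, and 612 in DBA against 552 in D2-mdx. B10 stood apart from the other 3 libraries, and mdx was above DBA. B10 was also the library with the most barcodes removed for having under 1000 genes. The log2 ratio was -0.75 (-0.78 to -0.73) in mdx over B10 and -0.15 (-0.18 to -0.12) in D2-mdx over DBA. At 3000 UMIs per cell, 89.1% of B10, 67.4% of mdx, 75.8% of DBA and 69.9% of D2-mdx myogenic cells held a UMI of Sdc4. Endothelial-like cells were the lowest type, at 5.95% of mdx and 6.59% of D2-mdx cells. Glial cell-like cells were near the myogenic range, at 70.0% to 84.2% of cells and 486 to 897 CPM. Schwann cell-like cells of mdx and D2-mdx held 369 to 395 CPM. Sdc4 was thus not particular to myogenic cells.

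This difference was not spread evenly over the clusters. In the DMD-enriched-like cluster, led by Postn, Mgp and Col1a2 and made up of 950 mdx, 576 D2-mdx, 48 B10 and 55 DBA cells, Sdc4 stood at 1113 CPM in B10 against 266 in mdx, and 468 in DBA against 263 in D2-mdx. Both dystrophic values were under both controls there, with log2 ratios of -2.06 (-2.19 to -1.94) and -0.83 (-0.99 to -0.66). In cycling-like cluster 4, led by Esm1, Fosl1 and Tnc with 4 of the 6 cycling markers detected, it was the reverse. Sdc4 there was 1003 CPM in B10 against 1674 in mdx, and 521 in DBA against 893 in D2-mdx, which gave log2 ratios of 0.74 (0.65 to 0.83) and 0.78 (0.63 to 0.93). Cycling-like cluster 7, with all 6 cycling markers detected, did not share this high level. Sdc4 was 352 to 458 CPM there in mdx and D2-mdx, the only libraries with at least 20 such cells.

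Among MuSC-like clusters, Sdc4 was highest in cluster 0, which is led by immediate-early genes such as Nr4a1, Ier3 and Btg2. It stood at 1488 CPM in B10 against 1360 in mdx, and 755 in DBA against 855 in D2-mdx. In MuSC-like cluster 1 the values were 741, 377, 462 and 413 CPM in the same order. Every library was lower in cluster 1 than in cluster 0, and the clusters differ in immediate-early genes, whose expression is known to rise during tissue dissociation. The summed level of the 16 immediate-early genes, with none at 0, was 45820 CPM in all myogenic cells of B10 against 35683 in mdx. It was 37646 in DBA against 35117 in D2-mdx. In all MuSC-like cells the dystrophic libraries were higher instead. The sum there was 46800.8 CPM in B10 against 55122.3 in mdx, and 39367.5 in DBA against 55687.9 in D2-mdx. In MuSC-like cluster 0 it was 66495.9, 85488.2, 54298.2 and 76439.4 CPM in B10, mdx, DBA and D2-mdx. In MuSC-like cluster 8 mdx was lower, at 46360.4 CPM against 51633.2 in B10. The part of this sum in the level of Sdc4 was not tested. In differentiating-like cells, which express Myog, Sdc4 was 467, 200, 388 and 277 CPM. There and in MuSC-like cluster 1, both dystrophic values of Sdc4 were under both controls, as in DMD-enriched-like cells.

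Over all MuSC-like cells Sdc4 moved in opposite directions in the 2 backgrounds, at a log2 ratio of -0.34 (-0.36 to -0.31) in mdx over B10 and 0.13 (0.094 to 0.16) in D2-mdx over DBA. The second ratio was -0.12 when cells were not integrated across libraries. That run gave no DMD-enriched-like cluster, so its MuSC-like cells were not the same set of cells. The controls differed as well, and DBA over B10 gave a log2 ratio of -0.90 (-0.92 to -0.87) in all myogenic cells, and -0.88 (-0.91 to -0.86) in MuSC-like cells.

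Sdc1, a syndecan of proliferating myoblasts, was 15.6 CPM in B10 against 39.3 in mdx, and 16.7 in DBA against 38.7 in D2-mdx. The intervals of the controls overlap, and both dystrophic libraries lay above them. The log2 ratios were 1.33 (1.20 to 1.47) and 1.21 (1.07 to 1.36). In cycling-like cluster 4 Sdc1 was 16.6 CPM in B10 against 113 in mdx, and 21.4 in DBA against 73.2 in D2-mdx. The dystrophic libraries were also higher in DMD-enriched-like cells, at 3.79 CPM in B10 (48 cells) against 58.5 in mdx. There DBA (55 cells) held 19.4 CPM against 53.0 in D2-mdx. Cycling-like cluster 7 of mdx and D2-mdx held 44.0 to 46.5 CPM of Sdc1, less than DMD-enriched-like cells of these 2 libraries. In MuSC-like cells the ratios were 0.33 (0.14 to 0.52) in mdx and 0.79 (0.60 to 0.97) in D2-mdx. Without integration, where no DMD-enriched-like cluster was set apart, they were 1.18 and 1.10.

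Pericyte-like cells held far more Sdc1 than myogenic cells, 628, 573, 824 and 523 CPM in B10, mdx, DBA and D2-mdx, and 70.5% to 88.5% of them held a UMI at 3000 UMIs per cell. The summed level of the 6 pericyte markers in myogenic cells was 23.1 CPM in B10 against 55.4 in mdx, and 39.8 in DBA against 68.5 in D2-mdx, with none of them at 0. Pericyte RNA at the median share of those markers would bring 1.46 of the 15.6 CPM of Sdc1 in B10 myogenic cells against 4.33 of 39.3 in mdx, and 5.09 of 16.7 in DBA against 4.76 of 38.7 in D2-mdx. Its part in the ratio of Sdc1 was not tested further. Over all kept cells, pericyte-like cells included, the log2 ratio of D2-mdx over DBA was -0.30, with the sign turned.

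Sdc2, a syndecan known from fibroblasts, was 79.2 CPM in B10 against 118 in mdx, and 81.0 in DBA against 115 in D2-mdx. Its log2 ratios were 0.58 (0.52 to 0.65) and 0.51 (0.44 to 0.58), and in MuSC-like cells 0.51 and 0.48. These 4 ratios lay close together, which was not so for Sdc1. It was higher in fibro-adipogenic progenitor or tenocyte-like cells, at 236 CPM in mdx and 287 in D2-mdx, and in pericyte-like cells, at 153 to 245 CPM.

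Sdc3, a satellite cell syndecan, was 12.5 CPM in B10 against 8.55 in mdx, and 19.8 in DBA against 14.1 in D2-mdx. Its log2 ratios were -0.55 (-0.75 to -0.35) and -0.49 (-0.67 to -0.32), within the 2-fold limit, and over all kept cells, other types included, they were 0.63 and 0.038, with the sign turned. In MuSC-like cluster 8, whose leading genes include the Hedgehog target genes Hhip and Gli1, Sdc3 was 33.3 CPM in B10 against 74.6 in mdx, and 36.4 in DBA against 63.1 in D2-mdx. In that cluster of 42 to 104 cells per library it was above the level of all myogenic cells in every library, and higher in the dystrophic libraries, with log2 ratios of 1.16 (0.33 to 1.97) and 0.79 (0.099 to 1.49). Sdc3 was also high in endothelial-like, glial cell-like and white blood cell-like cells, at 81.4 to 92.9, 62.7 to 121 and 44.2 to 125 CPM in the libraries with at least 20 such cells.

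Gpc1, the glypican of myoblasts known to sequester fibroblast growth factor, was 38.0 CPM in B10 against 99.7 in mdx, and 34.0 in DBA against 112 in D2-mdx. Both dystrophic libraries were above both controls. The log2 ratios were 1.39 (1.31 to 1.48) and 1.71 (1.61 to 1.81). They were 0.65 (0.53 to 0.76) and 1.14 (1.01 to 1.27) in MuSC-like cells.

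Within each dystrophic library, Gpc1 was lowest in MuSC-like cluster 0, among myogenic clusters with at least 20 cells, and higher in the DMD-enriched-like, cycling-like and differentiating-like clusters. In mdx it was 33.3 CPM in MuSC-like cluster 0, 143 in DMD-enriched-like cells, 147 in cycling-like cluster 4, 137 in cycling-like cluster 7 and 148 in differentiating-like cells. The intervals of the last 4 overlap one another. D2-mdx showed 44.4, 151, 164, 185 and 168 CPM in the same order.

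Gpc3, a glypican that is known to bind Hedgehog ligands and limit growth, had the largest ratio of the members that reached 10 CPM. Its UMIs in myogenic cells numbered 114 in B10 against 2534 in mdx, and 38 in DBA against 657 in D2-mdx, or 2.86, 62.6, 1.26 and 18.8 CPM. Every dystrophic value was above every control value. The log2 ratios were 4.45 (4.18 to 4.74) and 3.90 (3.43 to 4.41). At 3000 UMIs per cell, 10.6% of mdx and 4.23% of D2-mdx myogenic cells held a UMI, against 0.78% of B10 and 0.44% of DBA, and against 0.79% of mdx and 1.10% of D2-mdx endothelial-like cells. The control shares were no higher than those of endothelial-like cells, of which B10 and DBA held only 14 and 9.

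In mdx, Gpc3 was 133 CPM in DMD-enriched-like cells, 130 in MuSC-like cluster 8, 101 in immunomyoblast-like cells, which express interferon-induced genes, and 66.4 in MuSC-like cluster 1. MuSC-like cluster 0 of mdx held 12.9 CPM. Gpc3 is among the 10 leading genes of the DMD-enriched-like cluster, and the members were left out of the genes used for clustering. Leading genes were ranked over pooled libraries, and this cluster is mostly dystrophic cells. The rank is therefore not separate from the higher Gpc3 of the dystrophic libraries. In glial cell-like cells it was 130, 690, 363 and 560 CPM in B10, mdx, DBA and D2-mdx. Glial RNA at the median share of the glial markers would bring 0.162 of the 2.86 CPM in B10 myogenic cells against 1.74 of 62.6 in mdx, and 0.389 of 1.26 in DBA against 3.93 of 18.8 in D2-mdx. Pericyte RNA would bring 0.386, 0.696, 1.19 and 0.926 CPM of Gpc3 in B10, mdx, DBA and D2-mdx. The DBA level, the denominator of the second ratio, thus cannot be told apart from RNA of other types, while both estimates lay well under the B10 level. In DBA MuSC-like cluster 1, glial RNA would bring 0.336 and pericyte RNA 0.809 CPM, against a measured 0.668. In D2-mdx MuSC-like cluster 0 they would bring 2.01 and 0.911 of 5.70 CPM.

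The 2 dystrophic libraries differed in Gpc3 more than in any other member with at least 10 CPM. D2-mdx over mdx gave a log2 ratio of -1.74 (-1.86 to -1.61), the only member of 9 past 2-fold lower, where 1.55% of 8178 genes passed, and 0 of 9 passed higher, where 2.03% passed. This pair shares its libraries with the disease comparisons. In DBA over B10, 0 of 7 members passed in either direction, where 1.76% of 8339 genes were higher and 1.74% lower.

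Gpc4 and Gpc6 stayed within the 2-fold limit in both pairs. Gpc4 was 23.6 CPM in B10 against 18.2 in mdx, and 21.8 in DBA against 18.7 in D2-mdx, with log2 ratios of -0.37 (-0.51 to -0.23) and -0.22 (-0.38 to -0.064). Gpc6, which was near the lower limit of 10 CPM, was 5.59, 10.9, 6.97 and 10.5 CPM in the same order, with ratios of 0.96 (0.72 to 1.20) and 0.59 (0.34 to 0.84), the second of which was -0.19 over all kept cells. Over the alternative ways of processing, the Gpc6 ratio of mdx over B10 ranged from 0.85 to 1.29, past 2-fold at its upper end. Gpc6 was mostly a gene of pericyte-like cells, where it stood at 197, 172, 329 and 251 CPM.

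**Figure D2:**
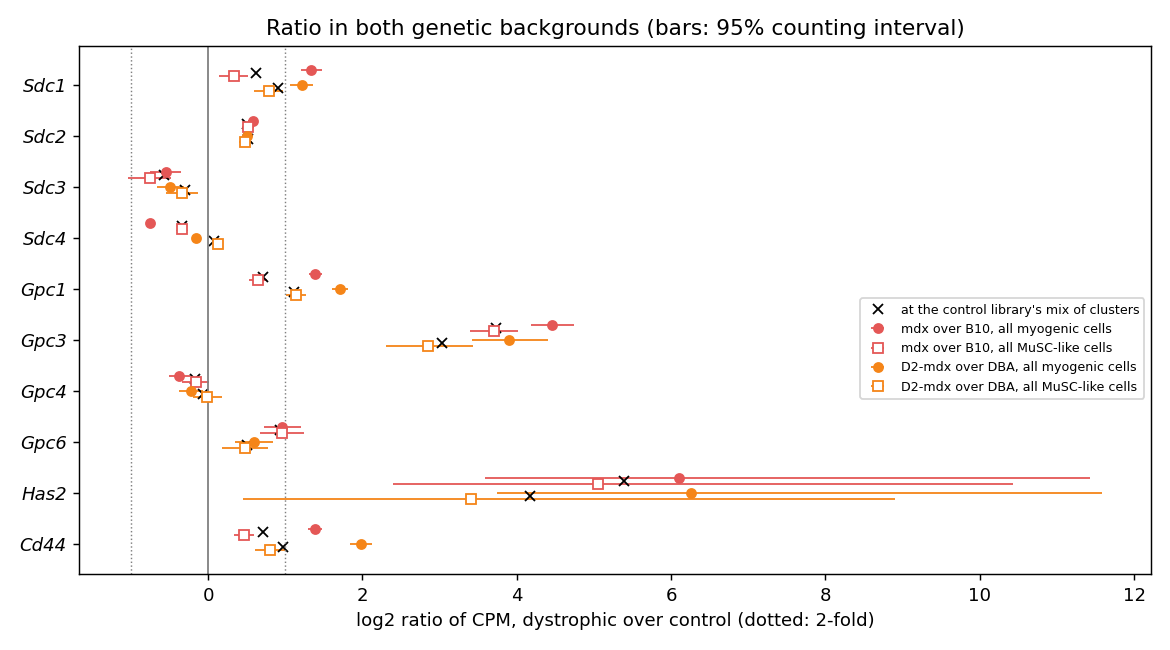
Log2 ratio of CPM, dystrophic over control (x axis), for each member (y axis), with mdx over B10 in red and D2-mdx over DBA in orange. Filled points are all myogenic cells, open squares all MuSC-like cells, bars 95% counting intervals, and crosses the ratio with the control's mix of clusters in both libraries. Gpc3 stays above 2-fold in all 3, but was under 10 CPM in MuSC-like cells of D2-mdx and DBA. Sdc1 and Cd44 fall below 2-fold in MuSC-like cells and at the fixed mix. These values are with integrated cells. Without integration no DMD-enriched-like cluster was set apart, and MuSC-like cells were a different set. There Sdc1 and Cd44 were above 2-fold in MuSC-like cells, and Gpc3 in D2-mdx was at -0.70 at the fixed mix.

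Cd44, the hyaluronan receptor, was 30.8 CPM in B10 against 80.4 in mdx, and 16.1 in DBA against 63.9 in D2-mdx. Both dystrophic libraries were above both controls. The log2 ratios were 1.39 (1.29 to 1.48) and 1.99 (1.84 to 2.13). In MuSC-like cells they were 0.47 (0.34 to 0.60) and 0.80 (0.61 to 1.00). Without integration, where no DMD-enriched-like cluster was set apart, they were 1.07 and 1.33, past 2-fold.

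In the dystrophic libraries the cycling-like clusters held the highest Cd44 of the myogenic clusters with at least 20 cells, whereas in the controls DMD-enriched-like cells held more than cluster 4, at 75.8 CPM in B10 and 42.7 in DBA. In cluster 4 it was 49.0 CPM in B10 against 262 in mdx, and 27.4 in DBA against 188 in D2-mdx, and in cluster 7, led by Top2a and Cenpf, 143 in mdx and 146 in D2-mdx. In cluster 4, 47.4% of mdx and 40.4% of D2-mdx cells held a UMI at 3000 UMIs per cell, against 11.8% of B10 and 9.43% of DBA cells, and against 2.53% of mdx and 4.35% of D2-mdx Schwann cell-like cells. White blood cell-like cells, in which Cd44 is a known adhesion receptor, stood at 251 CPM in mdx and 209 in D2-mdx. The summed white blood cell markers in myogenic cells were 1.5 CPM in B10 against 25.2 in mdx, and 7.23 in DBA against 108 in D2-mdx, with 1 of the 7 at 0 in B10, and their part in the Cd44 ratio was not tested.

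Has2 was rare in myogenic cells, with 1 UMI in B10 against 70 in mdx, and 1 in DBA against 89 in D2-mdx. The log2 ratios were 6.11 (3.58 to 11.4) and 6.26 (3.75 to 11.6), and the level stayed under 10 CPM. Of the D2-mdx UMIs, 52 came from cycling-like cluster 7, where 2.52% of cells held a UMI at 3000 UMIs per cell, and 0 of 91 endothelial-like cells did, which allows a share of up to 3.30%. These shares cannot be told apart at 3000 UMIs per cell. Over all UMIs, Has2 stood at 11.1 CPM in that D2-mdx cluster and at 0 CPM in endothelial-like cells. Pericyte-like cells held more, 36.3, 48.6, 16.4 and 23.7 CPM in B10, mdx, DBA and D2-mdx. Pericyte RNA at the median share of its markers would bring 0.084 CPM of Has2 in B10 myogenic cells, where 0.025 was measured. In DBA it would bring 0.101, where 0.033 was measured. In mdx it would bring 0.368 of 1.73 CPM, and in D2-mdx 0.216 of 2.55. The control levels, the denominators of both ratios, thus cannot be told apart from pericyte RNA.

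The share of each cluster differs between the libraries, and MuSC-like cells were 93.5% of B10 and 93.3% of DBA myogenic cells against 66.1% of mdx and 69.4% of D2-mdx. The control's mix of clusters was given to both libraries over the 10 clusters of the first pair and the 8 of the second with at least 20 cells in each, which held 95.5% of mdx and 85.6% of D2-mdx myogenic UMIs. At that mix the log2 ratios of Gpc3 were 3.74 in mdx and 3.03 in D2-mdx, those of Gpc1 0.72 and 1.11, those of Cd44 0.72 and 0.97, and those of Sdc1 0.62 and 0.91. Sdc4 gave -0.33 and 0.078. Gpc3 was past 2-fold in both backgrounds and Gpc1 in D2-mdx, while Sdc1 and Cd44 were not. Without integration the clusters differed and none was DMD-enriched-like. There the fixed-mix ratio was -0.70 for Gpc3 in D2-mdx and -1.01 for Gpc1 in mdx, and the share of UMIs covered is not given. In MuSC-like cells 1 of 9 members, Gpc3, which reached 10 CPM there in mdx only, passed 2-fold higher in mdx, where 2.95% of genes passed, and 1 of 7, Gpc1, in D2-mdx, where 3.68% passed and where Gpc3 did not reach 10 CPM in either library. In the lower direction 0 passed in either, where 3.3% and 3.65% of genes did. D2-mdx over mdx had Sdc3 higher, at 1.12, and Gpc3 lower, at -1.96, of 9 members, where 1.86% and 1.65% of genes passed. Sdc3 reached 10 CPM there in D2-mdx only and Gpc3 in mdx only, so both were compared only through the library where they were high. DBA over B10 had 0 of 7 higher and Cd44 lower, at -1.02, where 1.85% and 1.79% passed.

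**Figure D3:**
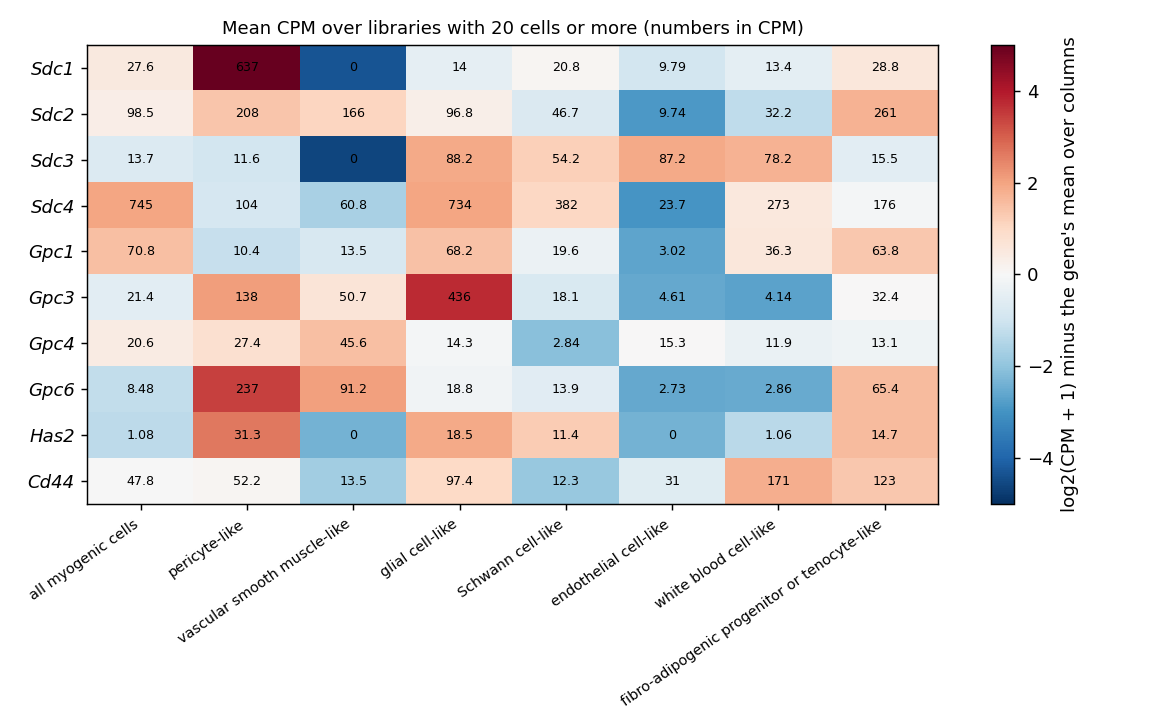
Mean level in CPM over libraries with at least 20 cells (numbers) for each member (rows) in all myogenic cells and 7 non-myogenic types (columns), coloured by log2(CPM + 1) minus the member's mean over columns. Vascular smooth muscle-like cells had at least 20 cells in mdx only. Sdc1 and Gpc6 are highest in pericyte-like cells and Gpc3 in glial cell-like cells, at 436 CPM.

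Around the members, 3 of 9 other proteoglycan core proteins with at least 10 CPM were 2-fold higher and 2 lower in mdx over B10, and 4 of 9 were higher and 2 lower in D2-mdx over DBA. Over all genes compared, 4.65% were higher and 5.14% lower in the first pair and 5.88% and 5.95% in the second, and these shares stand beside the counts of all lists that follow. All 3 of the higher core proteins in mdx and 3 of the 4 in D2-mdx were under 10 CPM in the control, so they were compared only because the dystrophic level was high. Of the 2 lower core proteins, 1 in mdx and 0 in D2-mdx reached 10 CPM in the control only. The list genes named here and in the next paragraph were taken only from those with the same sign in both pairs. Their shared direction is therefore no result. Vcan, which encodes the hyaluronan-binding proteoglycan versican, had log2 ratios of 3.12 and 1.68, and Tgfbr3, the betaglycan that binds TGF-β, -1.37 and -1.40. Of 26 listed enzymes of heparan sulphate chain synthesis, 13 reached 10 CPM in each pair. Of these 13, 0 passed higher in either pair and 0 passed lower in mdx. In D2-mdx 1 passed lower, Glce, which epimerises glucuronic acid, with ratios of -0.76 and -1.09 in the 2 pairs. Of 24 listed hyaluronan genes other than Has2 and Cd44, 3 reached 10 CPM in the first pair and 5 in the second. In mdx 1 of 3 was higher, and in D2-mdx 2 of 5 were higher and 1 lower. Of the 2 higher in D2-mdx, 1 was under 10 CPM in DBA. Itih5, whose protein is linked to hyaluronan, stood at 193 CPM in B10 against 704 in mdx, and 194 in DBA against 533 in D2-mdx.

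Of the ligands and receptors that depend on heparan sulphate, 3 of 8 passed higher and 1 lower in mdx, and 3 of 10 higher and 4 lower in D2-mdx. Of the higher genes, 2 of 3 in mdx and 3 of 3 in D2-mdx, Fn1 and Spp1 in both, reached 10 CPM in the dystrophic library only. Of the lower genes, 0 of 1 in mdx and 2 of 4 in D2-mdx reached 10 CPM in the control only. Fn1, the gene of fibronectin, had log2 ratios of 1.64 and 2.61 and Hbegf, a heparin-binding growth factor, 1.19 and 1.76. Vegfa, which is held in the matrix by heparan sulphate, had -2.46 and -2.0. Spp1, which encodes the Cd44 ligand osteopontin, had 2 UMIs in B10 and 2100 in mdx, and 13 in DBA and 5478 in D2-mdx. Of the cytoplasmic partners, 0 of 7 passed in mdx and 1 of 7 higher in D2-mdx, Ezr, which encodes ezrin, at 0.69 and 1.68. Of 5 genes that edit or shed the chains and core proteins, 0 passed in mdx and 1 lower in D2-mdx, Mmp2, a matrix protease, at -0.77 and -1.86, and none of the 8 and 10 chondroitin sulphate genes passed.

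The genes most like each member were ranked by Pearson's r of log2(CPM + 1) over 57 cluster and library pairs, which share libraries and depth. For Sdc4 these were Ncam1, Celf2 and Iqgap2, at 0.85, 0.84 and 0.84, and for Gpc3 Col27a1, Col1a2 and Csmd1, at 0.86, 0.82 and 0.82. For Cd44 they were Myof, Adam19 and Ckap4, at 0.75, 0.71 and 0.70, and for Gpc1 Ppp1r14b, Dcakd and Xrcc5, at 0.81, 0.80 and 0.79. Sdc1 was most like the pericyte cluster's leading gene Colec11, at 0.78.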

How the data were processed

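The authors made the deposited counts, UMIs per gene and cell, with Cell Ranger 3.0.1 on mm10. Kept cells had 1000 to 5000 genes, with no more than 8% of UMIs mitochondrial, and the highest doublet scores (scanpy 1.11.5, Scrublet) were removed at a share of 0.008 per 1000 cells. Cells were integrated and clustered in Seurat 5.3.0 (2000 features without the members, 30 dimensions, resolution 0.1, and 0.4 for myogenic cells) and named by markers, as "-like". The study used 0.2 for myogenic cells, and 0.2 had been planned here. Of 3 clusterings tried, 0.4 was taken after the clusters were seen, Gpc3 among their leading genes, because dividing and differentiating cells shared a cluster at 0.2. A cluster with under 3 detected markers was kept as myogenic, also by a rule made after the clusters were seen, as was the estimate of RNA from other types. UMIs were summed, scaled to CPM, and compared as log2 ratios, with a floor of 3 counts where a library had 0, at least 10 CPM in a library of the pair and a 2-fold limit. Named genes are all members, at most 4 genes per list and 3 similar genes per member. List genes were named only among those with ratios of the same sign in both pairs, ranked by the smaller absolute ratio. Their shared direction was thus set by this choice. The members and lists were chosen with earlier results of these data known. TMM (edgeR 4.0.16) and DESeq2 1.42.0 scaling served as alternatives. Intervals were checked on simulated data drawn with counting error only, a check that does not cover variation between cells or mice.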

Additional observations from a re-analysis of the deposited data

Results flagged for a closer look

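Sdc4 moved in opposite directions in the 2 backgrounds, with counting intervals clear of 0 on both sides, in MuSC-like cells. Its log2 ratio was -0.34 in mdx over B10 and 0.13 in D2-mdx over DBA. In MuSC-like cluster 0 the ratios were -0.13 and 0.18, and in MuSC-like cluster 8 -0.43 and 0.24. In MuSC-like cluster 1 Sdc4 was lower in both dystrophic libraries than in their controls. Without integration, which gave no DMD-enriched-like cluster, the ratio of D2-mdx over DBA in MuSC-like cells was -0.12, with the sign turned. With 1 library per strain the difference between backgrounds was not tested.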

How the results depend on the processing

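No paired analysis was possible because each strain has 1 library and the labels give no replicate numbers, and for the same reason no replicate could be left out. At the study's resolution of 0.2, used as an alternative after seeing the data, 2 members in place of 1 passed 2-fold higher at the fixed mix in mdx. Without integration, which gave no DMD-enriched-like cluster, 5 and 4 members in place of 1 and 1 passed in MuSC-like cells of mdx and D2-mdx, 1 passed lower at the fixed mix in mdx, and the fixed-mix ratio of Gpc3 in D2-mdx turned to -0.70. With TMM or DESeq2 scaling 2 members passed in mdx MuSC-like cells, and with doublets kept or 20 dimensions 2 in D2-mdx. At most 5% mitochondrial UMIs, or members kept as features, gave 1 in place of 2 at the fixed mix in D2-mdx. Over all kept cells, 2 members passed higher in D2-mdx over DBA, 0 lower in D2-mdx over mdx, and 3 higher and 1 lower in DBA over B10, where the Gpc3 ratio turned to 1.97, the Sdc1 and Gpc6 ratios in D2-mdx turned to -0.30 and -0.19, and those of Sdc3 to 0.63 in mdx and 0.038 in D2-mdx. Unthinned, 6, 7 and 7 members had a UMI in 10% of B10, DBA and D2-mdx cells. At 50 CPM 3 list genes passed higher in mdx, and 5 higher and 5 lower in D2-mdx. With no minimum 24 passed higher and 15 lower in mdx, and 31 and 22 in D2-mdx. At these alternative settings the share of all genes that passed was not computed. The counts are therefore no result about the members or the list genes. The causes of the changes were not tested.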
